A study of Mus musculus with 20 samples.

Results

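Kcnk10, Otop3, Adora1 and Paqr5 are 4 genes for channels and receptors of the cell surface in mouse intestinal epithelium. They were chosen by the size of their falls in CPM after the histone demethylase genes Kdm6a and Kdm6b had been ablated. The genes were found by symbol in both expression tables, as 4 of 17605 gene names listed in either table. Their own falls are therefore a description and carry no test. The 20 libraries were poly(A) RNA-seq of jejunal epithelium from female mice, and the series text places the cells in the crypts. Of these, 7 were from double-knockout mice (DKO, both genes ablated) and 5 from control mice with the genotype Control/WT at 7 days after ablation (acute). A further 5 DKO and 3 control libraries were from 5 months after it (prolonged). The labels call the libraries biological replicates, so p-values measure the spread between these samples. The recombinase, its promoter, the inducing agent and the age of the mice are not given in the sources used here.

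Kcnk10 encodes TREK-2, a potassium leak channel of the two-pore family that opens with stretch, heat and lipids and helps to set the resting potential of a cell. Otop3 encodes an otopetrin, a channel that lets protons into a cell when the outside is acidic. Adora1 encodes the A1 adenosine receptor, which acts through inhibitory G proteins to lower cyclic AMP, and Paqr5 encodes a membrane progesterone receptor of the progestin and adipoQ receptor (PAQR) family. Kdm6a and Kdm6b remove methyl groups from lysine 27 of histone H3, a mark that polycomb proteins place and that is known to lie most often over promoters rich in CG dinucleotides.

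Because that mark is tied to CG-rich promoters, the 250 bases before the start of each gene are shown, from RefSeq on build GRCm38.p6, 5′ to 3′ on the strand of the gene, with CG dinucleotides in capitals. The first of 2 listed starts of Kcnk10 (chr12:98578214-98578463, minus strand) holds 4 CG, and 37.8% of 32851 mouse promoter windows hold fewer. The second Kcnk10 start (chr12:98575128-98575377, minus strand) holds 16 CG, more than 74.6% of windows. The first listed Adora1 start (chr1:134235458-134235707, minus strand) holds 19 CG, more than 80.3% of windows. Paqr5 (chr9:62026791-62027040, minus strand) holds 16 CG, and the first listed start of Otop3 (chr11:115334481-115334730, plus strand) holds 15. Each of the 4 genes thus has a listed start with more CG than the median window, which holds 6, and Kcnk10 has one with fewer as well. The data here measure RNA only, so which start is used and whether these windows carry the mark was not tested.
Kcnk10 start 1: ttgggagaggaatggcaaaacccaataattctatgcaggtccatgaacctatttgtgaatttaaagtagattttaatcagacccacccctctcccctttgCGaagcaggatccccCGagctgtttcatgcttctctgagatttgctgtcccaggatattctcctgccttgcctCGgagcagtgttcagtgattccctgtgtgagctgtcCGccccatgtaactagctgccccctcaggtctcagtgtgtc
Kcnk10 start 2: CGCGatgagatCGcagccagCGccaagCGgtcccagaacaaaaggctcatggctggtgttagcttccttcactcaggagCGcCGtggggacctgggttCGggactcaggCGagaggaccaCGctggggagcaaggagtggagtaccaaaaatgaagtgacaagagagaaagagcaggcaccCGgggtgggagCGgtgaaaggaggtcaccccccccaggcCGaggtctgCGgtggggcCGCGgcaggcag
Adora1 start 1: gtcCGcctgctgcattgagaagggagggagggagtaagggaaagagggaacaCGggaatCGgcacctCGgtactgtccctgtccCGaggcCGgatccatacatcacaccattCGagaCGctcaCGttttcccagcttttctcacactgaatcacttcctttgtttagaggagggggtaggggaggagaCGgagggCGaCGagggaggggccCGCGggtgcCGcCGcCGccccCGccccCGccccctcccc
Paqr5: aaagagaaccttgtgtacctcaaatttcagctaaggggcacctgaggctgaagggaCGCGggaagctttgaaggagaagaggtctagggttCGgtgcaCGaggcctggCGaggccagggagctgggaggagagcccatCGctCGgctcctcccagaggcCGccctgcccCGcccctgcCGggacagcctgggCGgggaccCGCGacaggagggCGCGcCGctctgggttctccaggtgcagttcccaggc
Otop3 start 1: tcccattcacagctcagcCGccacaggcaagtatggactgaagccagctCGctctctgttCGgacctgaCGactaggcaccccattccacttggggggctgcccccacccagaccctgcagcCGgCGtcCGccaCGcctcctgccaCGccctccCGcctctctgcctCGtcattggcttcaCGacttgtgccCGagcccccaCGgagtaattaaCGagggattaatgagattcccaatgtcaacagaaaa

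The same windows were searched on both strands for 4 short motifs. The GC box GGGCGG, which 32.7% of all promoter windows hold, was found in Kcnk10 start 1, Adora1 start 1 and Paqr5, and not in Kcnk10 start 2 or Otop3. None of the 5 windows printed held a TATA box, spelled TATAAA, which 12.4% of all windows hold. None held a GATA site, spelled AGATAA and found in 9.99% of windows. None held a CDX site, spelled TTTATG and found in 10.8%. A match is only a match of letters and shows no bound factor.

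Depth ran from 19134272 to 26586045 reads in genes for acute DKO libraries and from 15435118 to 26549494 for acute controls. For prolonged libraries it ran from 12560843 to 20612206 in DKO and from 9914738 to 23181576 in controls. Values are CPM, reads of a gene scaled to the same total of gene reads in each library. Fold changes compare DKO with control as a difference of log2(CPM + 1), with standard errors (SE) from limma-trend, and understate changes of low genes. As a check of the labels, the groups did not overlap for Kdm6a or Kdm6b at either time, with Kdm6a at 42.6 ± 2.73 CPM in acute DKO libraries and 66.1 ± 6.62 CPM in acute controls (SD, n = 7 and 5). limma called 2035 of 13601 tested genes (15.0%) at the acute time, 1641 of them lower (12.1%) and 394 higher (2.90%), at an adjusted p under 0.05. That split depends on scaling, since limma on TMM-scaled CPM called 1124 lower and 660 higher. At the prolonged time it called 1955 of 13316 (14.7%), 1190 lower (8.94%) and 765 higher (5.74%). Without control 3 alone these counts were 1237 acute and 1052 prolonged. All 4 chosen genes passed the filter on low values at both times and lie among the genes called lower, as their choice fixes. Acute DKO 3 and 4 stood apart from the other acute libraries on the first principal component (34.0 and 45.9, against -28.0 to 12.1). They come from a range of animal numbers with no control, so in them animal series and genotype cannot be told apart. Summed Paneth cell markers were 764 to 4057 CPM in acute DKO libraries and 4721 to 9534 CPM in acute controls, with 10 of 13 genes called lower. Stem cell markers came to 1123 to 2266 CPM in acute DKO libraries and 2423 to 3131 CPM in controls, with 6 of 16 lower. Prolonged Paneth sums were 1980 to 7460 CPM in DKO libraries and 7744 to 8538 CPM in controls, with 8 of 13 lower, and prolonged stem cell sums were 1994 to 2276 and 2653 to 3071 CPM, with 3 of 16 lower. Summed immune cell markers were 436 to 1320 CPM in acute DKO libraries and 493 to 911 CPM in acute controls, and 429 to 1002 and 325 to 691 CPM at the prolonged time. Stromal and endothelial markers came to 45.1 to 723 CPM in acute DKO libraries, the highest in DKO 3, and 54.8 to 220.3 CPM in acute controls, with 0 of 12 called by limma. Enteroendocrine markers came to 294 to 628 CPM in acute DKO libraries and 454 to 543 CPM in controls with 4 of 19 lower, and to 412 to 606 and 537 to 627 CPM at the prolonged time, with 6 of 19 lower and 1 higher. Enteric neuron and glia markers came to at most 6.12 CPM in acute DKO libraries and 7.11 CPM in controls. Their part in the results was not tested. In such bulk samples fewer cells of a type and less RNA per cell cannot be told apart.

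Kcnk10 was nearly lost in every DKO library. It stood at 2.44, 1.65, 1.54, 1.40, 1.78, 1.99 and 2.45 CPM in acute DKO libraries 1 to 7, against 22.4, 20.8, 22.5, 21.5 and 21.0 CPM in acute controls 1 to 5. In prolonged DKO libraries it stood at 1.35, 1.36, 1.10, 1.41 and 1.32 CPM, against 19.6, 18.2 and 16.6 CPM in prolonged controls. The groups were far from overlapping at both times, and the highest DKO library lay well under the lowest control. Expressed as a share, the DKO mean was 8.74% of the control mean at the acute time (1.89 ± 0.420 against 21.6 ± 0.769 CPM, SD, n = 7 and 5) and 7.22% at the prolonged time (1.31 ± 0.120 against 18.1 ± 1.47 CPM, n = 5 and 3). The log2 fold changes were -2.98 ± 0.11 and -3.05 ± 0.11, the largest falls of all tested genes at both times on this scale. DKO libraries held 30 to 65 Kcnk10 reads at the acute time and 16 to 29 at the prolonged time, so the gene was still detected in each.

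Between controls, Kcnk10 varied less than Otop3. Its coefficient of variation was 3.55% over the 5 acute controls and 8.12% over the 3 prolonged controls, where that of Otop3 was 34.9% and 20.6%. Acute DKO 3 and 4, the libraries that stood apart, had the lowest acute Kcnk10 values. In 2 ranges of animal numbers that held both groups, each DKO library lay below each control, as it did for the other 3 genes. One range held 2 DKO and 3 control libraries, the other 3 DKO and 1 control. The genes were chosen for their falls, and how many of all genes separate in such small groups was not counted. Leaving out 1 library at a time kept the log2 fold change between -3.03 and -2.94 at the acute time and between -3.11 and -3.0 at the prolonged time.

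In the same channel family no tested gene was called lower, beside 12.1% of all tested genes at the acute time and 8.94% at the prolonged time. So few were tested that this does not set the family apart from all tested genes. Of 13 further two-pore channel genes, 6 were tested at the acute time with 0 called by limma in either direction. At an unadjusted p under 0.05 there was 1, edgeR called 0 and DESeq2 called 1 (Kcnk5, higher). Their median log2 fold change was 0.10, beside -0.07 over all tested genes. Kcnk5 (TASK-2, an alkali-activated channel) was 177 ± 38.5 CPM in acute DKO libraries and 123 ± 28.7 CPM in acute controls, a log2 fold change of 0.52 ± 0.19 that missed limma's threshold (adjusted p = 0.0747, above every control in 6 of 7 libraries). At the prolonged time 4 were tested and 1 rose, Kcnk6 (TWIK-2), at 21.4 ± 1.14 CPM in DKO libraries and 17.0 ± 0.971 CPM in controls (0.31 ± 0.08, limma adjusted p = 0.0202, higher in 5 of 5 libraries). That call was lost without control 1, control 3 or DKO 5 (limma adjusted p = 0.0528 to 0.0673), and the median of the list was 0.17, beside 0.00 over all tested genes.

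Among 18 other potassium channel genes of epithelia, 11 were tested at each time. At the acute time 3 fell and 0 rose, with a median of -0.29, beside 12.1% of all tested genes lower and a median of -0.07. At the prolonged time 1 fell and 0 rose, which is about the share of all tested genes called lower (8.94%), with a median of -0.10, beside 0.00. Kcnh3, a voltage-gated channel, fell at both times. It was 1.12 ± 0.343 CPM in acute DKO libraries and 2.31 ± 0.433 CPM in controls (-0.65 ± 0.13, limma adjusted p = 0.00628, lost with a block for animal number at 0.0576). In prolonged libraries it was 1.02 ± 0.488 CPM in DKO and 2.11 ± 0.114 CPM in controls (-0.65 ± 0.18, limma adjusted p = 0.0278). Kcnj16 and Kcnj13, inward rectifier channels, fell at the acute time, at low levels. Kcnj16 averaged 0.0986 ± 0.189 CPM in DKO libraries and 0.673 ± 0.190 CPM in controls, with overlapping groups (-0.61 ± 0.13, limma adjusted p = 0.00628). Kcnj13 averaged 0.450 ± 0.135 CPM in DKO libraries and 0.903 ± 0.297 CPM in controls (-0.38 ± 0.12, limma adjusted p = 0.0465). The Kcnj13 call was lost on TMM-scaled CPM, in edgeR and in DESeq2 (adjusted p = 0.0671, 0.0501 and 0.0581), with a block for animal number (limma, 0.266), without DKO 3 and 4 together (limma, 0.111), and in 10 of 12 fits without 1 library. The prolonged Kcnh3 call was lost without any control or without DKO 2, 4 or 5 (limma adjusted p = 0.0526 to 0.0792). Kcns3, a potassium channel gene outside these lists, was named after its values were seen. Its log2 fold changes were -1.82 (acute) and -1.63 (prolonged), beside -1.83 and -1.44 for Adora1.

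**Figure D1:**
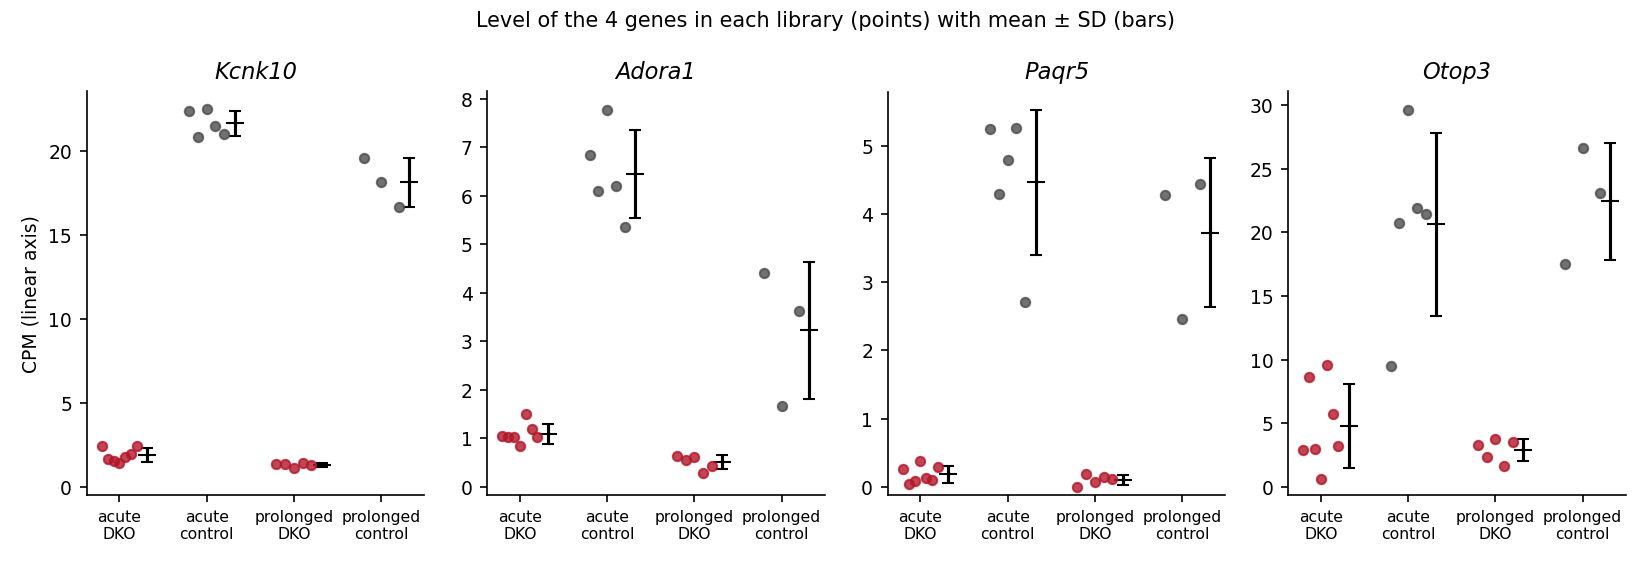
CPM of Kcnk10, Adora1, Paqr5 and Otop3 (linear axes) in each library (points) with mean ± SD (bars), in acute DKO (n = 7), acute control (n = 5), prolonged DKO (n = 5) and prolonged control (n = 3) libraries. DKO points lie below every control point of their time except for Otop3 at the acute time, where DKO 5 at 9.60 CPM reaches just above control 1 at 9.46 CPM.

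Otop3, the proton channel gene, was low in DKO libraries with a wide spread between libraries. It stood at 2.86, 8.62, 2.96, 0.606, 9.60, 5.75 and 3.18 CPM in acute DKO libraries 1 to 7, against 9.46, 20.8, 29.6, 21.9 and 21.4 CPM in acute controls 1 to 5. Prolonged DKO libraries had 3.26, 2.35, 3.78, 1.60 and 3.49 CPM, against 17.5, 26.7 and 23.1 CPM in prolonged controls. The acute groups overlapped through a single pair, DKO 5 and control 1, and 6 of 7 DKO libraries lay below every control; the prolonged groups did not overlap. The DKO mean was 23.2% of the control mean at the acute time (4.80 ± 3.31 against 20.6 ± 7.20 CPM, SD, n = 7 and 5) and 12.9% at the prolonged time (2.90 ± 0.901 against 22.4 ± 4.61 CPM, n = 5 and 3). The log2 fold changes were -2.05 ± 0.41 and -2.60 ± 0.20, and the acute value was -1.32 with a block for animal number. The acute DKO libraries varied among themselves by a coefficient of variation of 69.1%, from 13 reads in DKO 4 to 210 in DKO 5.

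The library with the least Otop3, acute DKO 4, also had the lowest sums of Paneth and stem cell markers (764 and 1123 CPM), and acute control 1, with the least Otop3 of the acute controls, had the lowest Paneth sum of them (4721 CPM). Prolonged DKO 4 had the least Otop3 of its group, with the lowest stem cell sum of the 5 (1994 CPM) and the second highest Paneth sum (5165 CPM). Within 1 range of animal numbers, Otop3 was 5.75 to 9.60 CPM in 2 DKO libraries and 20.8 to 29.6 CPM in 3 controls, and within another it was 2.86 to 8.62 CPM in 3 DKO libraries and 9.46 CPM in 1 control, so the groups did not overlap within either range. The part of crypt cell content in these values was not tested.

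The sister genes Otop1 and Otop2 gave no further reading, since neither reached the level for testing. Their summed level was at most 0.105 CPM in acute DKO libraries and 0.372 CPM in acute controls, and at most 0.206 CPM in prolonged DKO libraries and 0.202 CPM in prolonged controls. Of 27 genes of proton and bicarbonate transport, 21 were tested at each time. At the acute time 4 fell and 1 rose (median -0.04, beside -0.07 over all genes), and at the prolonged time 5 fell and 2 rose (median -0.05, beside 0.00). Of all tested genes, 12.1% were lower and 2.90% higher at the acute time, and 8.94% and 5.74% at the prolonged time.

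Car8, a carbonic anhydrase relative without catalytic activity that binds the IP3 receptor, was 10.9, 12.2, 15.9, 15.7, 11.2, 12.5 and 13.5 CPM in acute DKO libraries, against 25.8, 26.2, 31.0, 27.2 and 21.2 CPM in controls. It fell by 0.95 ± 0.11 on the log2 scale at the acute time (limma adjusted p = 0.000191) and by 1.14 ± 0.10 at the prolonged time (8.13 ± 0.854 CPM in DKO libraries and 19.1 ± 0.627 CPM in controls, limma adjusted p = 3.13e-05). Every DKO library lay below every control at both times. Car12, a membrane carbonic anhydrase that hydrates carbon dioxide outside the cell, fell too, to 13.4 ± 1.82 CPM in acute DKO libraries, against 21.8 ± 2.67 CPM in controls (-0.66 ± 0.11, limma adjusted p = 0.00127). Its prolonged levels were 13.9 ± 1.12 CPM in DKO libraries and 22.2 ± 3.90 CPM in controls (-0.63 ± 0.11, limma adjusted p = 0.00367). Asic5, an ion channel known to respond to bile acids, was 0.491 ± 0.265 CPM in acute DKO libraries and 1.64 ± 0.421 CPM in controls (-0.83 ± 0.15, limma adjusted p = 0.00222). Its prolonged levels were 0.354 ± 0.110 CPM in DKO libraries and 1.42 ± 0.447 CPM in controls (-0.82 ± 0.15, limma adjusted p = 0.00379).

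Slc4a7, a sodium bicarbonate cotransporter gene, went the other way. It was 249 ± 63.9 CPM in acute DKO libraries and 149 ± 23.3 CPM in controls (0.70 ± 0.18, limma adjusted p = 0.0196). It was 199 ± 24.2 CPM in prolonged DKO libraries and 148 ± 17.7 CPM in controls (0.42 ± 0.10, limma adjusted p = 0.0167). These calls were lost without acute control 1 or 2 (limma adjusted p = 0.0514 to 0.0527) and without prolonged control 1 (0.0666). The other called genes were named to complete the counts after their values were seen. They were the membrane carbonic anhydrase gene Car9, lower at both times (-0.39 and -0.28), the sodium proton exchanger gene Slc9a2, lower at the prolonged time (-0.43), and the carbonic anhydrase gene Car4, higher at the prolonged time (0.35). The prolonged Car9 call was lost in 6 of 8 fits without 1 library (limma adjusted p = 0.0524 to 0.118).

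Adora1, the A1 adenosine receptor gene, was low throughout the DKO libraries. It stood at 1.05, 1.02, 1.03, 0.839, 1.51, 1.20 and 1.02 CPM in acute DKO libraries 1 to 7, against 6.84, 6.10, 7.77, 6.19 and 5.36 CPM in acute controls 1 to 5. Prolonged DKO libraries had 0.637, 0.556, 0.619, 0.291 and 0.421 CPM, against 4.40, 1.66 and 3.63 CPM in prolonged controls. The groups did not overlap at either time, though prolonged control 2 came close to the DKO libraries. The DKO mean was 17.0% of the control mean at the acute time (1.10 ± 0.210 against 6.45 ± 0.906 CPM, SD, n = 7 and 5) and 15.6% at the prolonged time (0.505 ± 0.146 against 3.23 ± 1.41 CPM, n = 5 and 3). The log2 fold changes were -1.83 ± 0.11 and -1.44 ± 0.21, and the prolonged value ranged from -1.74 to -1.23 when 1 library was left out. Prolonged DKO libraries held only 6 to 9 Adora1 reads each, against 29 to 102 in controls, so counting error alone is wide there.

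Of the sister receptors 2 were tested, and whether their changes differ from each other was not tested. Adora2a, which raises cyclic AMP through a stimulatory G protein, was 3.55 ± 0.997 CPM in acute DKO libraries and 3.71 ± 1.29 CPM in controls (-0.04 ± 0.20, limma adjusted p = 0.915). Prolonged values were 3.03 ± 0.622 CPM in DKO libraries and 2.45 ± 0.111 CPM in controls (0.21 ± 0.14, limma adjusted p = 0.373). Adora2b, the low-affinity receptor with the same coupling, was 8.25 ± 4.44 CPM in acute DKO libraries and 11.6 ± 2.44 CPM in controls, which missed the threshold (-0.58 ± 0.30, limma adjusted p = 0.220). At the prolonged time, with a change of about the same size, Adora2b passed, at 8.28, 6.49, 7.08, 6.84 and 8.06 CPM in DKO libraries, against 11.5, 13.4 and 9.18 CPM in controls (-0.55 ± 0.13, limma adjusted p = 0.0135). All 5 DKO libraries lay below every control, but the call was lost without control 2 (limma adjusted p = 0.0565). At the acute time 0 of the 2 genes passed limma, also at an unadjusted p under 0.05, in edgeR and in DESeq2, and Adora3 was not tested at either time.

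The share of called genes among those that make, carry and remove adenosine was near the 15.0% of all tested genes at the acute time. Of 20 such genes, 18 were tested at the acute time, of which 2 rose and 1 fell (median -0.03, beside -0.07 over all tested genes), and 19 at the prolonged time, of which 3 rose and 2 fell (median -0.04, beside 0.00, with 14.7% of all tested genes called). Slc28a2, a sodium-coupled carrier that takes purine nucleosides into cells, was 139, 93.7, 133, 230, 122, 158 and 117 CPM in acute DKO libraries, against 39.3, 81.5, 77.9, 89.5 and 91.3 CPM in controls. Each DKO library lay above each control, and the gene rose by 0.90 ± 0.22 on the log2 scale (limma adjusted p = 0.0161). It also rose at the prolonged time, to 122 ± 9.96 CPM in DKO libraries, against 72.8 ± 28.8 CPM in controls (0.80 ± 0.18, limma adjusted p = 0.0105, lost without control 3 at 0.0513).

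Slc28a2, Ada and Nt5e also stand in the list of villus tip markers. That list summed to 11120 to 18445 CPM in acute DKO libraries and 8007 to 15382 CPM in controls, with 2 of 10 higher and 1 lower. Enterocyte markers summed to 46573 to 61506 CPM in acute DKO libraries and 36664 to 52805 CPM in controls, with 6 of 20 higher and 1 lower. Of prolonged values, 2 of 10 villus tip markers were higher and 0 lower, and 2 of 20 enterocyte markers were higher and 1 lower. Those 2 villus tip markers were Slc28a2 and Ada themselves, so the prolonged count gives no reading separate from these genes. Slc28a2 was also 1 of the 2 villus tip markers called higher at the acute time. Prolonged enterocyte sums were 58294 to 62601 CPM in DKO libraries and 45563 to 59828 CPM in controls. Of all tested genes, 2.90% were higher and 12.1% lower at the acute time, and 5.74% and 8.94% at the prolonged time. The part of these cells in the changes of Slc28a2 and Ada was not tested.

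Slc29a1, the equilibrative nucleoside transporter that lets adenosine cross in either direction, moved opposite to Slc28a2. It was 11.5, 15.6, 13.5, 12.4, 13.1, 18.1 and 20.5 CPM in acute DKO libraries, against 28.7, 24.0, 27.8, 27.0 and 26.8 CPM in controls (-0.82 ± 0.13, limma adjusted p = 0.00103). In the prolonged groups it was 17.4, 17.0, 16.9, 14.9 and 15.9 CPM in DKO libraries, against 29.3, 21.2 and 29.6 CPM in controls (-0.65 ± 0.11, limma adjusted p = 0.00237). The groups did not overlap at either time. Slc29a4, a transporter of monoamines and adenosine, rose at both times. It was 2.39 ± 0.602 CPM in acute DKO libraries and 1.23 ± 0.198 CPM in controls (0.59 ± 0.14, limma adjusted p = 0.0117), with overlapping groups. It was 1.97 ± 0.740 CPM in prolonged DKO libraries and 0.469 ± 0.0910 CPM in controls (0.98 ± 0.20, limma adjusted p = 0.00828).

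Ada, the deaminase that turns adenosine into inosine, was abundant. It rose at the prolonged time, to 428, 545, 466, 488 and 551 CPM in DKO libraries, against 200.4, 405 and 318 CPM in controls (0.74 ± 0.17, limma adjusted p = 0.0143), with no overlap. At the acute time it was 916 ± 376 CPM in DKO libraries and 497 ± 163 CPM in controls and missed limma's threshold (0.87 ± 0.29, adjusted p = 0.0606). It passed in DESeq2 (0.0385), with a block for animal number (limma, 0.00372) and without control 5 or DKO 2 (limma, 0.0449 and 0.0290). Pnp, the phosphorylase that acts on inosine, was named to complete the count after its value was seen, and fell at the prolonged time (-0.31, limma adjusted p = 0.00379). Nt5e, the surface enzyme that makes adenosine from AMP, was 10.5 ± 3.95 CPM in acute DKO libraries and 16.1 ± 5.23 CPM in controls, and 14.1 ± 3.46 CPM in prolonged DKO libraries and 23.5 ± 13.1 CPM in controls. Neither difference passed (limma adjusted p = 0.175 and 0.168).

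**Figure D2:**
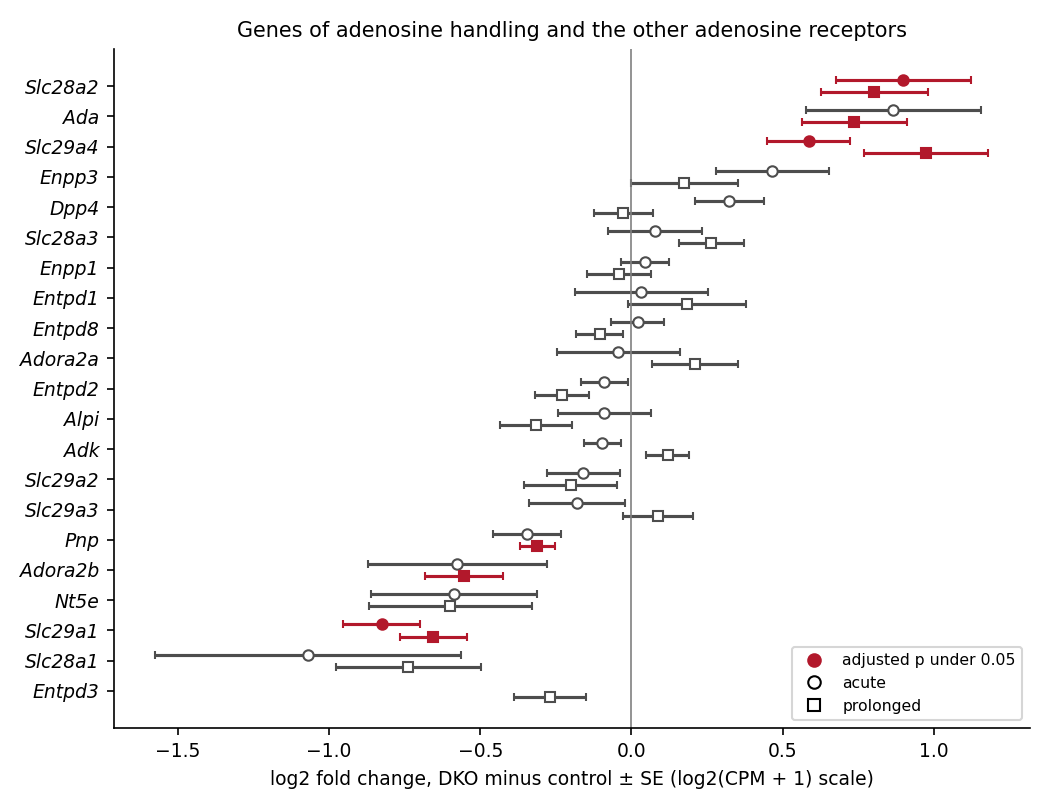
Log2 fold changes (DKO minus control, log2(CPM + 1) scale, ± SE) of tested genes of adenosine handling and of Adora2a and Adora2b, at the acute time (circles, 7 DKO and 5 control libraries) and the prolonged time (squares, 5 and 3); filled red symbols have a limma adjusted p under 0.05. Slc28a2 and Slc29a4 lie on the higher side and Slc29a1 on the lower side at both times, with Slc28a2 at 0.90 and 0.80 and Slc29a1 at -0.82 and -0.65.

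Genes of inhibitory and other G proteins, of G protein regulators and of adenylyl cyclases were called about as often as all tested genes at the acute time (15.0%). Of 21 genes, 19 were tested at the acute time, of which 2 rose and 1 fell (median -0.02, beside -0.07 over all tested genes), and 18 at the prolonged time, of which 3 rose and 3 fell (median -0.05, beside 0.00, with 14.7% of all tested genes called). Rgs2, which speeds the shut-off of G proteins (whether of those that serve Adora1 was not tested), rose at both times. It was 27.7 ± 4.56 CPM in acute DKO libraries and 16.0 ± 1.58 CPM in controls (0.74 ± 0.11, limma adjusted p = 0.00100), and 25.5 ± 2.92 CPM in prolonged DKO libraries and 16.5 ± 2.27 CPM in controls (0.60 ± 0.11, limma adjusted p = 0.00408). Adcy8 and Adcy1, cyclases stimulated by calcium, fell at the prolonged time. Adcy8 was 0.582 ± 0.240 CPM in DKO libraries and 2.41 ± 0.628 CPM in controls (-1.10 ± 0.17, limma adjusted p = 0.00118). Adcy1 was 1.06 ± 0.464 CPM in DKO libraries and 2.88 ± 1.56 CPM in controls (-0.87 ± 0.25, limma adjusted p = 0.0347). Neither passed at the acute time (limma adjusted p = 0.405 and 0.325), and whether their changes differ between times was not tested. The Adcy1 call was lost without control 1, control 3, DKO 2, DKO 4 or DKO 5 (limma adjusted p = 0.0585 to 0.168).

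Rgs12, another shut-off factor, was 9.43 ± 2.64 CPM in acute DKO libraries and 14.5 ± 1.84 CPM in controls (-0.60 ± 0.17, limma adjusted p = 0.0322). That call was lost without DKO 3 and 4 together (0.0670), with a block for animal number (0.0675) and in 6 of 12 fits without 1 library. The remaining called genes were named to complete the counts after their values were seen. The inhibitory alpha subunit gene Gnai1 rose at the acute time, to 1.25 ± 0.262 CPM in DKO libraries, against 0.598 ± 0.116 CPM in controls (0.49 ± 0.11, limma adjusted p = 0.00801). The others were the stimulatory alpha subunit gene Gnas (0.19, higher at the prolonged time) and the cyclase genes Adcy5 (0.57, higher) and Adcy9 (-0.30, lower) at the prolonged time. Of these, the Gnas call was lost without control 3 (limma adjusted p = 0.0758) and the Adcy5 call in 7 of 8 fits without 1 library.

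Paqr5, the membrane progesterone receptor gene, was close to the detection limit in DKO libraries. It stood at 0.263, 0.0485, 0.0857, 0.373, 0.137, 0.105 and 0.285 CPM in acute DKO libraries 1 to 7, against 5.25, 4.29, 4.79, 5.26 and 2.71 CPM in acute controls 1 to 5. In prolonged DKO libraries it stood at 0, 0.185, 0.0688, 0.146 and 0.120 CPM, against 4.27, 2.46 and 4.44 CPM in prolonged controls. The groups did not overlap at either time, and the DKO values rest on 1 to 8 reads per acute library and 0 to 3 reads per prolonged library. The 0 in prolonged DKO 1 allows a level of up to 0.239 CPM (3 reads).

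Over all reads of a group, Paqr5 had 30 reads in acute DKO libraries and 485 in acute controls, which makes its level in DKO libraries 4.23% of that in controls (95% exact Clopper-Pearson interval 2.82 to 6.11%). At the prolonged time it had 9 reads in DKO libraries and 186 in controls, or 3.04% (1.37 to 5.89%). These intervals cover counting error only. By this share Paqr5 was reduced further than the other 3 genes, which had 7.11 to 23.4% of the control level on summed reads. At the prolonged time the intervals of Paqr5 and Kcnk10 (5.76 to 8.70%) overlapped. The order of the 4 genes was not tested at either time, since these intervals leave out the spread between animals. On the log2(CPM + 1) scale the Paqr5 fold changes of -2.18 ± 0.14 and -2.07 ± 0.16 were smaller than those of Kcnk10, since the added 1 CPM is large beside the Paqr5 level.

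Among the other PAQR genes, those called lower were Paqr8 and Paqr7, 2 of the membrane progesterone receptor genes. Paqr9 and Paqr6 are counted in that branch too. Of these, Paqr9 was not called at either time and Paqr6 was not tested. Of 10 genes, 8 were tested at each time, and 1 rose and 2 fell at the acute time (median -0.10, beside -0.07 over all genes), while 1 rose and 1 fell at the prolonged time (median -0.00, beside 0.00). The shares over all tested genes were 2.90% higher and 12.1% lower (acute) and 5.74% and 8.94% (prolonged). Paqr8 was 0.978, 1.41, 1.97, 1.82, 1.87, 1.72 and 1.51 CPM in acute DKO libraries, against 2.11, 4.37, 3.05, 3.39 and 2.65 CPM in controls (-0.64 ± 0.15, limma adjusted p = 0.00963). In the prolonged groups it was 0.955, 1.11, 1.10, 1.46 and 0.902 CPM in DKO libraries, against 3.11, 2.46 and 3.23 CPM in controls (-0.90 ± 0.13, limma adjusted p = 0.00106). Each DKO library lay below each control at both times.

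Paqr7 was 15.1 ± 5.77 CPM in acute DKO libraries and 27.0 ± 7.34 CPM in controls, with overlapping groups (-0.85 ± 0.27, limma adjusted p = 0.0487). That call was lost on TMM-scaled CPM (limma, 0.0579), in edgeR (0.0611), without DKO 3 and 4 together (0.0510), with a block for animal number (0.221) and in 9 of 12 fits without 1 library. In the prolonged groups it was 19.9 ± 2.12 CPM in DKO libraries and 28.1 ± 7.55 CPM in controls, which missed limma's threshold (-0.45 ± 0.14, adjusted p = 0.0565) but passed in edgeR and DESeq2 (adjusted p = 0.0282 and 0.00707). Paqr4 rose at both times. It was 97.7 ± 6.10 CPM in acute DKO libraries and 82.8 ± 6.16 CPM in controls (0.24 ± 0.06, limma adjusted p = 0.0161, lost without control 3 at 0.0549 and with a block for animal number at 0.0970). It was 94.6 ± 2.81 CPM in prolonged DKO libraries and 80.6 ± 2.28 CPM in controls (0.23 ± 0.05, limma adjusted p = 0.00874). The adiponectin receptor genes Adipor1 (-0.01 acute and 0.03 prolonged) and Adipor2 (-0.10 and -0.10), Paqr3 (-0.09 and -0.03), Paqr9 (-0.29 and 0.02) and Mmd (-0.03 and 0.17) did not pass at either time, and Paqr6 and Mmd2 were not tested.

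Of 8 nuclear and other progesterone-binding proteins, 6 were tested at the acute time, with 1 higher and 0 lower (median -0.11), and 7 at the prolonged time, with 1 higher and 1 lower (median 0.03). Over all tested genes the shares were 2.90% higher and 12.1% lower (acute) and 5.74% and 8.94% (prolonged). Pgr, the nuclear progesterone receptor gene, did not reach the level for testing at either time. Nr3c2, the mineralocorticoid receptor, which also binds progesterone, rose to 49.3 ± 3.60 CPM in acute DKO libraries, against 37.6 ± 3.70 CPM in controls (0.39 ± 0.07, limma adjusted p = 0.00356). It also rose at the prolonged time, to 50.4 ± 3.97 CPM in DKO libraries, against 41.2 ± 1.77 CPM in controls (0.28 ± 0.07, limma adjusted p = 0.0220, lost without control 1, control 3 or DKO 4 at 0.0526 to 0.0699). Pgrmc1, a heme-binding membrane protein, fell at the prolonged time to 282 ± 6.58 CPM in DKO libraries, against 347 ± 33.6 CPM in controls (-0.29 ± 0.06, limma adjusted p = 0.00832).

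**Figure D3:**
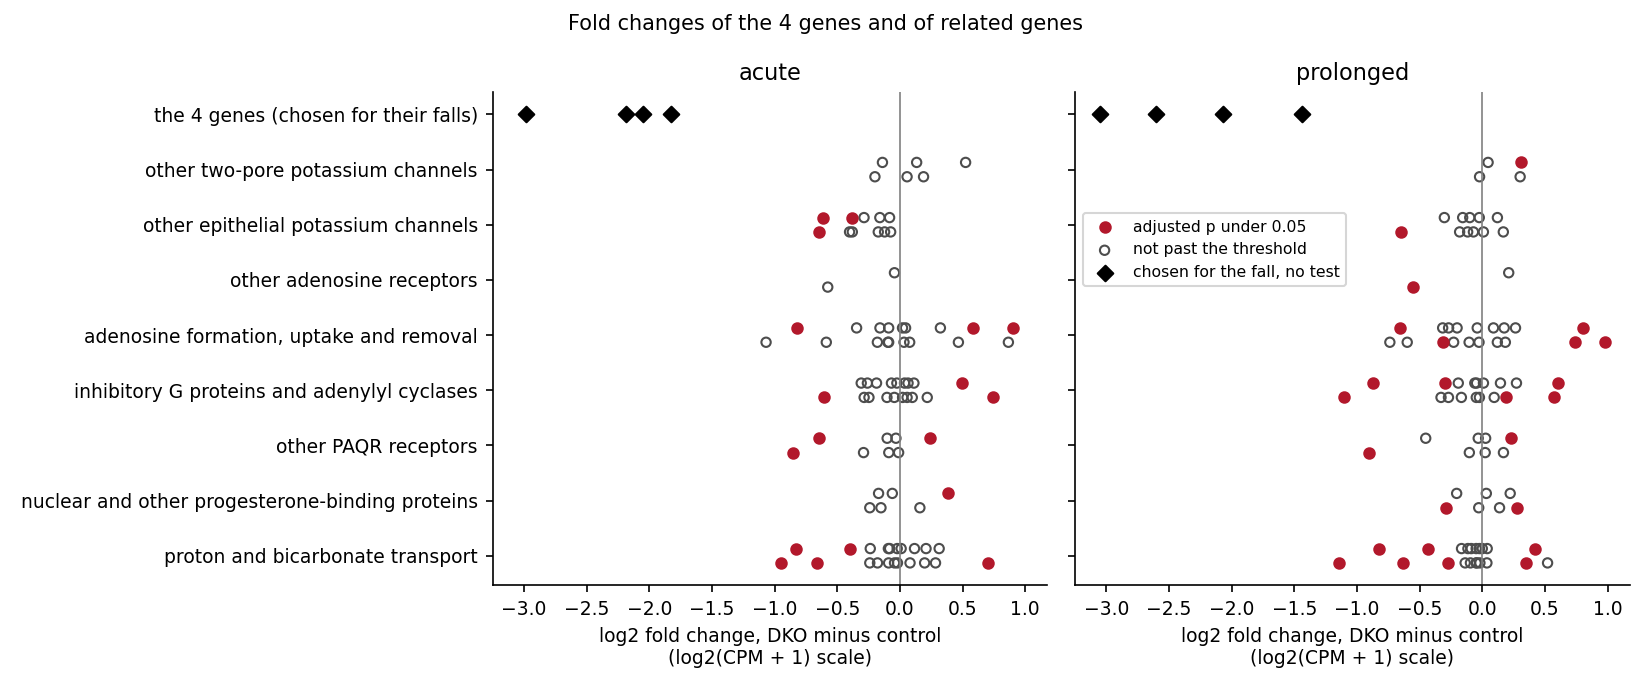
Log2 fold changes (DKO minus control, log2(CPM + 1) scale) of Kcnk10, Otop3, Adora1 and Paqr5 (black diamonds, chosen for their falls and not tested) and of the tested members of 8 related gene lists (circles; red, limma adjusted p under 0.05), at the acute (left) and prolonged (right) time. The circles lie within about 1 log2 unit of 0 on both sides, while the 4 chosen genes lie between -1.44 and -3.05. The potassium channel gene Kcns3 (-1.82 acute and -1.63 prolonged) is outside these lists and not shown.

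Over all related lists limma made 43 calls at both times, and in 34 of them every DKO library lay beyond every control. At the acute time this was 11 of 18 calls, beside 49.8% of all 2035 called genes, and at the prolonged time 23 of 25, beside 91.8% of 1955, so the prolonged share is near that of any called gene. The other 9 calls were acute Kcnj13 (3 of 7 DKO libraries beyond every control), Kcnj16 (6 of 7), Slc29a4 (6 of 7), Rgs12 (5 of 7), Paqr4 (5 of 7), Paqr7 (6 of 7) and Slc4a7 (6 of 7), and prolonged Slc4a7 (4 of 5) and Car9 (4 of 5).

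Set per kilobase of exon, where levels of different genes can be compared, Otop3 was the highest of the 4 in controls and Adora1 the lowest. The control means at the acute time were 8.50 CPM per kb for Otop3, 2.61 for Kcnk10, 1.21 for Paqr5 and 1.12 for Adora1, and at the prolonged time 9.24, 2.19, 1.01 and 0.559 CPM per kb in the same order. Control libraries of Paqr5 and Adora1 overlapped at both times on this scale, while those of the other neighbours in the order did not. Of the tested genes with a known length, 50.3% had a lower mean level per kb than Otop3 in acute controls, 27.2% than Kcnk10, 18.0% than Paqr5 and 17.3% than Adora1. In acute DKO libraries the means were 1.98 CPM per kb for Otop3, 0.228 for Kcnk10, 0.0501 for Paqr5 and 0.189 for Adora1, so the order of Paqr5 and Adora1 was reversed there.

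The genes most like each of the 4 were sought by Pearson's r of log2(CPM + 1) over the 20 libraries, among 13088 genes tested at both times. The libraries fall into DKO and control clusters, so these r mostly restate the genotype difference and are given as a description. Kcnk10 and Paqr5 were among the nearest to each other (r = 0.98), and both were near C4bp, a complement regulator (0.98 with Kcnk10 and 0.97 with Paqr5), and the zinc finger gene Zfp385b (0.97 with each). The others nearest to Kcnk10 were Gltpd2 and Tldc2 (0.97 each), and those nearest to Paqr5 were Sh3bgrl2 and the calcium sensor gene Ncald (0.97 each). Adora1 was nearest to Tldc2 and S100a16 (0.96 each) and Mxra7, the SUMO-activating enzyme gene Sae1 and the syndecan gene Sdc1 (0.95 each). Otop3 was nearest to Proz, a vitamin K-dependent plasma protein gene (0.95), and to Hykk, Camk2n1, the G protein gamma subunit gene Gng11 and the urea transporter gene Slc14a1 (0.94 each).

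When each library was taken as its deviation from its group mean, r between the 4 genes was lower than over the 20 libraries. Counting error weakens such r for genes with few reads or little spread. Paqr5 had 0 to 8 reads per DKO library and Adora1 6 to 9 per prolonged DKO library. Kcnk10 had a coefficient of variation of only 3.55% over the acute controls. A low r therefore does not show that these genes vary apart. Kcnk10 then had r = 0.11 with Adora1, 0.15 with Paqr5 and 0.02 with Otop3, and the remaining pairs had 0.52 (Adora1 and Paqr5), 0.20 (Adora1 and Otop3) and -0.44 (Paqr5 and Otop3). Otop3 kept its likeness to its nearest genes within groups, with r between 0.79 and 0.85 for all 5. Slc14a1 was 2.82, 5.38, 1.67, 0.0932, 5.99, 3.50 and 2.57 CPM in acute DKO libraries 1 to 7, and 8.00, 15.9, 14.1, 13.4 and 8.12 CPM in acute controls 1 to 5. Acute DKO 4 was lowest and DKO 5 highest of the DKO libraries for both Otop3 and Slc14a1, and control 1 lowest of the controls for both. These 20 points share library, depth and crypt cell content, and how much each contributes was not tested.

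**Figure D4:**
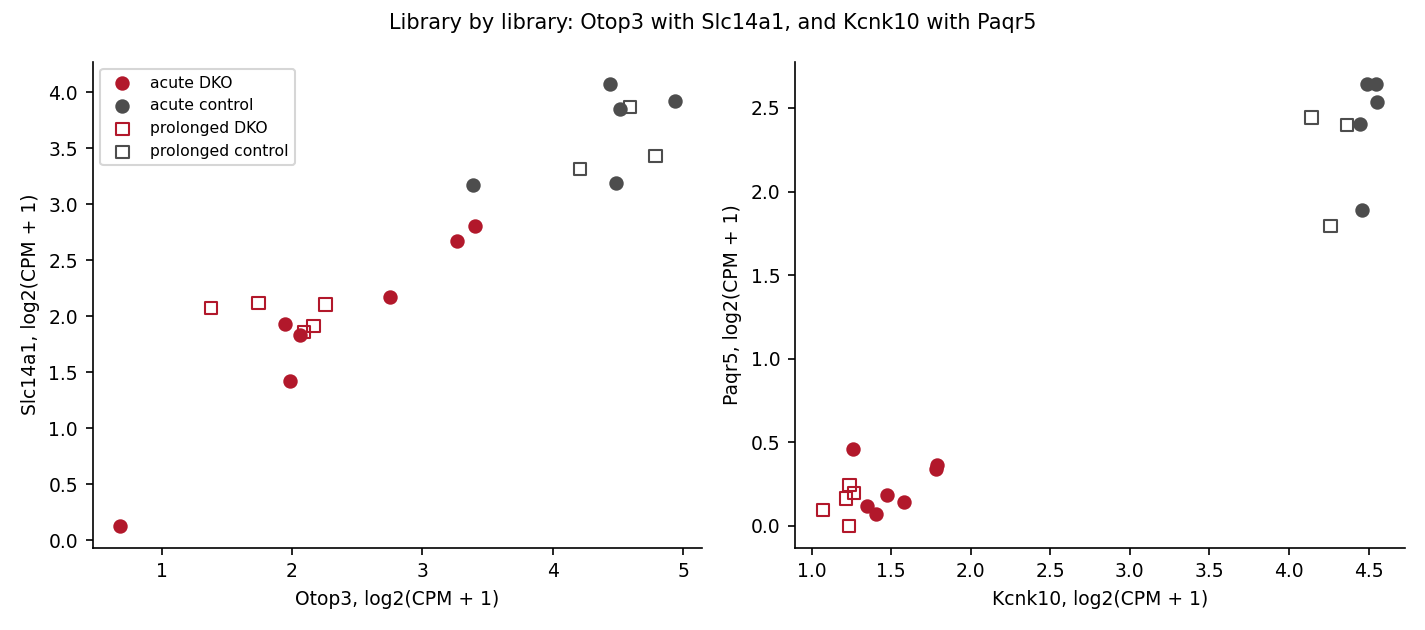
Log2(CPM + 1) of Slc14a1 against Otop3 (left) and of Paqr5 against Kcnk10 (right) in 7 acute DKO, 5 acute control, 5 prolonged DKO and 3 prolonged control libraries, 1 point each. Otop3 and Slc14a1 run together over a continuous range that starts at acute DKO 4 (0.606 and 0.0932 CPM), while Kcnk10 and Paqr5 form a DKO and a control cluster with a wide gap between them.

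Whether the falls extended along the chromosome was looked at in the 3 protein-coding genes on each side, in RefSeq order on GRCm38.p6. This comparison was chosen after the values of the 4 genes were known. Beside Kcnk10 on chromosome 12, limma called 0 of 6 tested genes at the acute time, with log2 fold changes between -0.04 and 0.46. At an unadjusted p under 0.05 there was 1, Ptpn21, which edgeR and DESeq2 called higher. At the prolonged time 1 of 5 rose, the phosphatase gene Ptpn21, at 37.5 ± 4.37 CPM in DKO libraries and 29.0 ± 1.32 CPM in controls (0.35 ± 0.09, limma adjusted p = 0.0239, lost without control 2, control 3, DKO 4 or DKO 5 at 0.0534 to 0.0759). Beside Adora1 on chromosome 1, limma called 0 of 3 tested genes at the acute time and 0 of 2 at the prolonged time (0 at an unadjusted p under 0.05, in edgeR and in DESeq2). Beside Otop3 on chromosome 11, limma called 0 of 4 and 0 of 3 (1 acute and 0 prolonged at an unadjusted p under 0.05, and 0 in edgeR and DESeq2). Around these 3 genes no tested neighbour was called lower, beside 12.1% (acute) and 8.94% (prolonged) of all tested genes. With so few neighbours tested, this does not set them apart from all tested genes.

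Beside Paqr5 on chromosome 9, 3 of 5 tested neighbours were lower at each time, against 12.1% and 8.94% of all tested genes. Glce, the epimerase of heparan sulfate synthesis and the next gene on one side, was 24.0 ± 2.78 CPM in acute DKO libraries and 37.7 ± 3.93 CPM in controls (-0.63 ± 0.09, limma adjusted p = 0.000713, below every control in 7 of 7). It was 26.1 ± 2.69 CPM in prolonged DKO libraries and 41.5 ± 4.17 CPM in controls (-0.65 ± 0.09, limma adjusted p = 0.000818). Kif23, a kinesin of cell division and the next gene on the other side, was 42.0 ± 9.52 CPM in acute DKO libraries and 65.8 ± 8.84 CPM in controls (-0.66 ± 0.15, limma adjusted p = 0.00842, below every control in 7 of 7). It changed by -0.37 ± 0.10 at the prolonged time (limma adjusted p = 0.0251, lost without control 1, control 3 or DKO 5 at 0.0552 to 0.0814). Anp32a fell at the acute time (-0.30 ± 0.08, limma adjusted p = 0.0271, below every control in 5 of 7 libraries, lost in 5 of 12 fits without 1 library at up to 0.0852, at 0.0754 without DKO 3 and 4 together, and at 0.110 with a block for animal number). The corepressor gene Tle3 fell at the prolonged time (-0.58 ± 0.12, limma adjusted p = 0.00967, below every control in 4 of 5 libraries, lost without control 3 at 0.0578). These are smaller changes than that of Paqr5, and whether neighbours of Paqr5 differ from those of other genes was not tested.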

How the data were processed

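The submitters' processing notes name STAR, featureCounts 1.6.2, DESeq2 and build mm9, without roles. The authors deposited 1 table per time with CPM per library; the CPM were whole multiples of 1 step within 0.01 reads in 100% of values, so whole reads were recovered, with weaker evidence for prolonged control 3. The deposited tables also hold a mean normalised signal, a log2 fold change, its test score and a p-value, used here only to check the recovered reads: DESeq2 1.42.0 gave the same 2344 and 2091 calls. Date-like names (24, acute) were left out of comparisons between times.

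limma-trend 3.58.1 (R 4.3.3) was fitted to log2(CPM + 1) of each time alone, for genes with at least 0.5 CPM in 5 (acute) or 3 (prolonged) libraries, with Benjamini-Hochberg adjustment over all tested genes. Alternatives were edgeR 4.0.16 (quasi-likelihood), DESeq2, TMM-scaled CPM, a pseudocount of 0.1, no filter, blocks, and leaving out libraries. The fit was tested on simulated data. Members and gene lists were chosen with earlier results of these data known. In each list up to 4 called genes with the largest changes were named, and every tested gene of the receptor families. Levels per kb used exon lengths from GENCODE vM21, and promoters and gene order came from RefSeq GRCm38.p6; the build differs from mm9, so no coordinates of the authors' files were used. No source used here says if reads were counted by strand, so reads of a gene and of an antisense or overlapping partner are not separated.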

Additional observations from a re-analysis of the deposited data

Results flagged for a closer look

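Within 100 groups of 4 to 10 libraries of 34 genes, 7 held a library far from the rest of its group by Dixon's criterion, where chance flags about 1 in 20 groups. Kcnk10 was 1.10 CPM in prolonged DKO 3, below the 1.32 to 1.41 CPM of the other prolonged DKO libraries. Adipor2 was 591 CPM in acute DKO 5, above 401 to 471 CPM in the other acute DKO libraries, and Paqr9 was 4.94 CPM in the same library, above 0.630 to 2.09 CPM. Kcnj16 was 0.513 CPM in acute DKO 4, above 0 to 0.129 CPM in the others of its group. Asic5 was 0.550 CPM in prolonged DKO 3, above 0.291 to 0.318 CPM. Kcnh3 was 3.05 CPM in acute control 2, above 1.94 to 2.24 CPM in the other acute controls, and Slc28a2 was 39.3 CPM in acute control 1, below 77.9 to 91.3 CPM.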

How the results depend on the processing

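The falls of all 4 genes kept their direction under every alternative run. Acute Otop3 shrank most, to -1.32 with a block for animal number and to -1.67 without DKO 3 and 4, against -2.05. With a pseudocount of 0.1 the acute and prolonged log2 fold changes were larger for Kcnk10 (-3.47 and -3.70), Adora1 (-2.46 and -2.39) and Paqr5 (-4.07 and -4.27), and for prolonged Otop3 (-2.95). In edgeR they were -3.42 and -3.77 (Kcnk10), -2.46 and -2.69 (Adora1), -4.42 and -4.94 (Paqr5) and -2.97 (prolonged Otop3), and in DESeq2 -3.40 and -3.78, -2.46 and -2.69, -4.45 and -5.05, and -2.97 in the same order; the pseudocount of 1 shrinks changes of low genes by construction. Without 1 library at a time the values ranged from -3.03 to -2.94 and -3.11 to -3.0 (Kcnk10), -1.88 to -1.77 and -1.74 to -1.23 (Adora1), -2.32 to -2.13 and -2.28 to -1.96 (Paqr5) and -2.29 to -1.78 and -2.76 to -2.47 (Otop3). The genes called ranged from 1237 to 2185 acute and 1052 to 1724 prolonged, the lowest without control 3 each time. Deviations of same-numbered replicates had correlations of -0.20 to 0.20 (acute) and -0.24 to -0.16 (prolonged). These give no clear sign that the numbers pair the libraries, but so few correlations cannot exclude it. With a replicate block 955 and 521 genes were called, from fewer libraries. The acute split of calls was 394 higher and 1641 lower, against 667 and 1081 in edgeR and 1040 and 1304 in DESeq2. Of 54 calls of related, neighbouring and targeted genes over both times, 35 were kept in every fit without 1 library. The replicate block lost 29 of them and gained 0, edgeR lost 3 and gained 2, and DESeq2 lost 1 and gained 5. In fits of the acute libraries only, the animal number block lost 6 and gained 2. Leaving out acute DKO 3 and 4 lost 4 and gained 3. The losses in these acute fits are out of the acute calls and not out of all 54. Depth limits Paqr5 and prolonged Adora1 in DKO libraries, which rest on 0 to 9 reads per library.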
